A study of Mus musculus with 8 samples.

Results

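The genes described here are 10 enzymes and regulators of the antioxidant and glutathione system: Nfe2l2, Gclc, Gclm, Gsr, Gpx1, Gpx4, Cat, Prdx1, Hmox1 and Nqo1. Each was followed by the probe set whose annotation holds its symbol alone, and by the brightest such probe set where there was more than 1. All 10 had such a probe set, of 19938 genes named in the same way on the array, and all 10 passed the brightness filter that left 13524 genes for testing. The levels come from thalamic tissue of 8 male C57BL/6 mice, an inbred laboratory strain, 6 weeks old when the experiment began, with 1 Affymetrix whole-transcript array per mouse and 2 mice per group. Mice of 3 groups received MPTP intraperitoneally (20 mg/kg every 24 hr for 4 weeks), a neurotoxin whose product is taken up by dopamine neurons and blocks mitochondrial complex I. Acupoint mice were needled in addition at GB34 and LR3, which lie on the leg and the foot, over 14 sessions at intervals of 48 hr, non-acupoint mice were needled at both hips on the same schedule, and MPTP mice were not needled. Control mice received saline on the days of the MPTP injections. The needled mice were all injected with MPTP, so needling without the toxin is not part of the design.

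Glutathione is a tripeptide that cells use to reduce peroxides and to tag reactive compounds. Glutamate-cysteine ligase starts its synthesis, glutathione peroxidases spend it on peroxides, and glutathione reductase returns the oxidised form to use. The transcription factor Nrf2, encoded by Nfe2l2, pairs with small Maf proteins and binds antioxidant response elements near many of these genes when oxidants or electrophiles release it from its inhibitor Keap1. In brain this programme is known mainly from astrocytes, and oxidative stress is a long-standing theme of the MPTP model.

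None of the 10 genes passed the test for a change with MPTP or with needling. Between groups their mean log2 levels spanned 0.14 (Nfe2l2) to 0.67 (Nqo1), and for 7 genes the pooled SD between mice of a group was more than 0.20. In the mean of MPTP mouse 1 and non-acupoint mouse 1, Gclm and Gpx1 stood about 1 log2 unit under the mean of the other 6 arrays, Prdx1, Gsr and Nqo1 stood 0.60 to 0.69 lower, and Gclc stood 0.56 higher. These 2 arrays also stood apart across all 35557 probe sets. Between these 2 the correlation was 0.987, between them and the remaining 6 it was 0.952 to 0.969, and among the remaining 6 it was 0.984 to 0.991 (Pearson, across probe sets, which are not independent replicates). Of 34 tested genes of complex I, 23 were lower on both of them than on each of the 6 (median difference -0.52), and so were 12 of 15 genes of the cytosolic ribosome (-0.53). Changes below are therefore followed by their value on the 6 arrays without these 2. That fit has a single MPTP array and a single non-acupoint array, which are taken to vary as much as arrays of the acupoint and control groups.

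The samples are labelled as thalamic tissue. All 14 listed thalamic neuron genes passed the brightness filter, as did all 10 astrocyte genes, so passing it does not show the region. The thalamic list had means of 8.95 and 9.08 log2 units in control mice and 9.53 to 9.93 in injected mice. RNA of neighbouring structures was also present, at levels that differed between groups. The choroid plexus list (13 of 14 genes tested) had means of 8.14 and 8.65 in acupoint mice, 5.93 and 5.96 in non-acupoint mice, 8.61 and 8.67 in MPTP mice, and 6.98 in both control mice. The dopamine neuron list (11 of 12 genes) had means of 6.95 in both acupoint mice, 7.31 and 7.40 in non-acupoint mice, 7.19 and 8.08 in MPTP mice, and 8.57 and 8.39 in control mice. Astrocyte means lay between 9.92 and 10.12 on all 8 arrays (10 of 10 genes). In tissue of this kind, fewer cells of a type and less RNA per cell cannot be told apart.

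**Figure D1:**
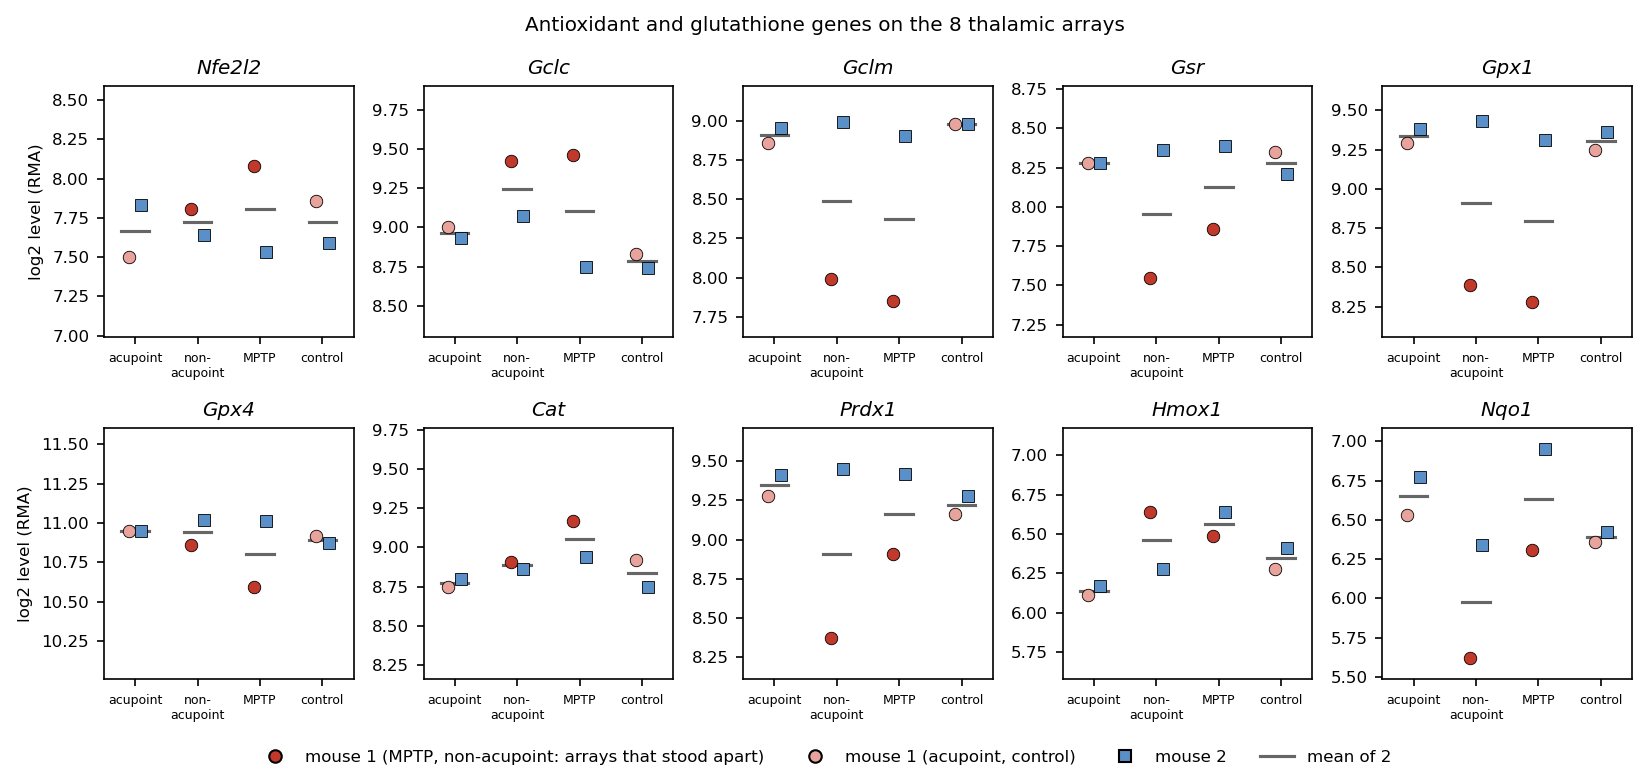
Log2 level (RMA) of each of the 10 genes on the 8 arrays, 1 panel per gene with the same height of scale, groups along the horizontal axis, circles for mouse 1, squares for mouse 2 and a bar for the mean of both. Dark circles mark MPTP mouse 1 and non-acupoint mouse 1, which lie below all other points for Gclm, Gpx1, Gsr, Prdx1, Gpx4 and Nqo1 and above them for Gclc.

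The regulator comes first. Nfe2l2, which encodes Nrf2, had log2 levels of 7.50 and 7.83 in acupoint mice, 7.81 and 7.64 in non-acupoint mice, 8.08 and 7.53 in MPTP mice, and 7.86 and 7.59 in control mice. The groups overlapped in all comparisons, and the highest and the second lowest value of the series came from the MPTP group. Its group means spanned 0.14, less than its pooled within-group SD of 0.25, which was at percentile 61.8 of all tested probe sets. In MPTP mice against controls the log2 change was 0.08 ± 0.23 (SE; 95% interval -0.47 to 0.63), an interval that includes changes in either direction, and -0.20 on the 6 arrays.

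The promoters of 3 of the genes are shown because they hold the core of the antioxidant response element, the sequence through which Nrf2 acts. RefSeq promoter windows (GRCm38.p6, 250 bases before to 50 after a start) were at hand for 7 of the 10 genes, in 10 windows, and the core TGACNNNGC, read on both strands, was found in 3 of them. Of all 32851 windows of this length, 12.4% held it. The 250 bases before the start are printed 5′ to 3′ on the gene's strand, with the match in capitals.
Gclm, chr3:122245307-122245556, plus strand: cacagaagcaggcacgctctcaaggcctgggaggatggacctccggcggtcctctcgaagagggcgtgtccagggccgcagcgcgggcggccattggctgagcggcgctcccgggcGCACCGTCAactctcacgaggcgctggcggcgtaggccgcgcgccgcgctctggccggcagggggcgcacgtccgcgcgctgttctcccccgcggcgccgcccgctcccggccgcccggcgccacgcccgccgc
Prdx1, chr4:116685349-116685598, plus strand: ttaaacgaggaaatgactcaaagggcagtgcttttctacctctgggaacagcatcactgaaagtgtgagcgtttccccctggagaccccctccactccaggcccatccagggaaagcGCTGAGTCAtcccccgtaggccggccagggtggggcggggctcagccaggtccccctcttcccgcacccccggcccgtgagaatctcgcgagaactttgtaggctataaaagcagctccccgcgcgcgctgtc
Nfe2l2, chr2:75704664-75704913, minus strand: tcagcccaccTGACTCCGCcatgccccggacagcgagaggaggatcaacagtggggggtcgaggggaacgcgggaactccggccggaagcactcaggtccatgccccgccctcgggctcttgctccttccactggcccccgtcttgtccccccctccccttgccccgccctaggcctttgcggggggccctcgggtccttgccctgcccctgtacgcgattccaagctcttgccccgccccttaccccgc
The match begins 134 bases before the start in Gclm and 133 in Prdx1, and in both it reads on the opposite strand (TGACGGTGC and TGACTCAGC). In Nfe2l2 it begins 240 bases before the start, on the gene's strand. Of the 3, Gclm and Prdx1 were lower on the 2 arrays that stood apart, and Nfe2l2 overlapped. The windows of Cat, Gpx1, Gpx4 and Nqo1 did not hold these letters.

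The 2 subunits of glutamate-cysteine ligase went opposite ways on the arrays that stood apart. Gclc encodes the catalytic subunit, which joins glutamate to cysteine. Its log2 levels were 9.00 and 8.93 in acupoint mice, 9.42 and 9.07 in non-acupoint mice, 9.46 and 8.75 in MPTP mice, and 8.83 and 8.74 in control mice. Both needled groups lay above both control mice, and MPTP mouse 2 lay between the controls. Gclm encodes the modifier subunit, which makes the enzyme more efficient. It stood at 8.86 and 8.95 in acupoint mice, 7.99 and 8.99 in non-acupoint mice, 7.85 and 8.90 in MPTP mice, and 8.98 in both control mice. On 6 arrays Gclm was nearly constant, within 0.13 log2 units, and only non-acupoint mouse 1 and MPTP mouse 1 left that range. The change in MPTP mice against controls was 0.32 ± 0.25 (SE) for Gclc and -0.61 ± 0.42 for Gclm. These changes were -0.03 and -0.08 without the 2 arrays.

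Gsr encodes glutathione reductase, which regenerates glutathione from its disulfide with NADPH. It had log2 levels of 8.28 in both acupoint mice, 7.55 and 8.36 in non-acupoint mice, 7.86 and 8.39 in MPTP mice, and 8.35 and 8.21 in control mice. The lowest 2 values were again those of non-acupoint mouse 1 and MPTP mouse 1, and the other 6 lay within 0.17.

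Among the enzymes that remove peroxides, Gpx1 followed Gclm closely. Gpx1 encodes the common cytosolic glutathione peroxidase, a selenoprotein. Its log2 levels were 9.29 and 9.38 in acupoint mice, 8.39 and 9.43 in non-acupoint mice, 8.28 and 9.31 in MPTP mice, and 9.25 and 9.36 in control mice. Apart from non-acupoint mouse 1 and MPTP mouse 1 the arrays lay within 0.18. Gpx4, the selenoprotein that reduces lipid peroxides within membranes and so restrains ferroptosis, was the steadiest gene of the set between groups besides Nfe2l2. It stood at 10.95 in both acupoint mice, 10.86 and 11.02 in non-acupoint mice, 10.59 and 11.01 in MPTP mice, and 10.92 and 10.87 in control mice. MPTP mouse 1 was lowest, non-acupoint mouse 1 lay 0.01 under the lower control, and MPTP mouse 2 and non-acupoint mouse 2 were highest. A second probe set of Gpx4 with nearly the same accessions lay lower, at 10.22 to 10.66, and differed between the 2 arrays and the other 6 by -0.24, against -0.22 for the first.

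Cat encodes catalase, the peroxisomal enzyme that breaks down hydrogen peroxide. Its log2 levels were 8.75 and 8.80 in acupoint mice, 8.91 and 8.86 in non-acupoint mice, 9.17 and 8.94 in MPTP mice, and 8.92 and 8.75 in control mice. Both MPTP mice lay above all other mice, and MPTP mouse 2 did so by 0.02 over control mouse 1. Prdx1 encodes a peroxiredoxin that reduces peroxides with thioredoxin. It had levels of 9.28 and 9.41 in acupoint mice, 8.37 and 9.45 in non-acupoint mice, 8.91 and 9.42 in MPTP mice, and 9.16 and 9.28 in control mice. Here too non-acupoint mouse 1 and MPTP mouse 1 were lowest. The other probe set of Prdx1, which has the same accessions, gave the same order at the low end, with 8.57 and 8.81 on those 2 arrays and 8.98 to 9.36 on the other 6. Since the annotation gives 2 probe sets the same or nearly the same transcripts for Gpx4 and for Prdx1, signal from near-identical copies of these genes cannot be separated from their own.

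The remaining 2 genes are classical targets of Nrf2 and were the dimmest of the 10, brighter than 17.1% (Hmox1) and 18% (Nqo1) of the tested probe sets. Hmox1 encodes the inducible heme oxygenase, which splits heme into biliverdin, iron and carbon monoxide. Its log2 levels were 6.11 and 6.17 in acupoint mice, 6.64 and 6.28 in non-acupoint mice, 6.49 and 6.64 in MPTP mice, and 6.28 and 6.41 in control mice. Both acupoint mice were lowest of the 8. Nqo1 encodes a quinone reductase that converts quinones without forming radicals. It stood at 6.53 and 6.77 in acupoint mice, 5.62 and 6.34 in non-acupoint mice, 6.31 and 6.95 in MPTP mice, and 6.36 and 6.42 in control mice. MPTP mouse 2 was highest, followed by both acupoint mice, and the value of non-acupoint mouse 1 lay at the brightness limit of 5.63, where differences are compressed.

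The first comparison asked what MPTP did. None of the 10 genes passed an adjusted p of 0.05 in MPTP mice against controls (limma over all 8 arrays, Benjamini-Hochberg adjustment over 15791 probe sets; smallest adjusted p = 0.714). None had an unadjusted p under 0.05 either, where 5.29% of all tested probe sets did and 0% passed the adjusted threshold. The log2 change was above 0 for 5 genes and under 0 for 5, with a median of 0.01 against -0.02 over all tested probe sets (0.11 against -0.01 on the 6 arrays). Cat (0.22 ± 0.14, SE; 0.11 on the 6 arrays) and Hmox1 (0.22 ± 0.16) were higher in both MPTP mice than in both controls, and Gclm was lower in both. Groups did not overlap in 38.5% of all tested probe sets (18.2% higher, 20.4% lower), and 3 of 10 is near that share. Of all tested probe sets 47.8% had a positive and 52.2% a negative change, and an unadjusted p under 0.05 was reached by 3.33% that were higher and 1.96% that were lower. The margin for Gclm in MPTP mouse 2 was 0.08.

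Without the 2 arrays that stood apart, MPTP mouse 2 alone was set against the controls. Nqo1 was then 0.56 ± 0.12 (SE) above the control mean, with an unadjusted p of 0.0034 and an adjusted p of 0.121 by limma. Hmox1 was 0.29 ± 0.10 above it (unadjusted p = 0.0236, adjusted p = 0.237, limma). With these 6 arrays 15.8% of tested probe sets had an unadjusted p under 0.05, and 0.361% passed the adjusted threshold. Over all 8 arrays the change of Nqo1 was 0.24 ± 0.30 and MPTP mouse 1 lay below both controls. On the 6 arrays Nqo1 was above both controls in MPTP mouse 2 and in both acupoint mice, with choroid plexus list means of 8.14 to 8.67, and 0.02 or more under both controls in non-acupoint mouse 2, whose list mean was 5.96. Of the arrays left out, MPTP mouse 1 had Nqo1 at 6.31, under both controls, with a list mean of 8.61, and non-acupoint mouse 1 had Nqo1 at 5.62 with a list mean of 5.93. The part of choroid plexus tissue in the level of Nqo1 was not tested.

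Taking the 3 injected groups together gave no call either. The log2 change of injected mice against controls lay between -0.39 ± 0.34 (SE, Gclm) and 0.32 ± 0.20 (Gclc), which were -0.05 and 0.15 on the 6 arrays. None of the 10 genes had an unadjusted p under 0.05, against 7.07% of all tested probe sets (smallest adjusted p = 0.739, limma). The change was above 0 for 6 genes and under 0 for 4, where 47.8% and 52.2% of all tested probe sets were, and 4.09% were higher and 2.98% lower at an unadjusted p under 0.05. No gene of the 10 had all 6 injected mice on 1 side of both controls, which 19.9% of tested probe sets had (10.3% higher, 9.66% lower). Gclc had 5 of the 6 injected mice above both controls, and Gclm had 5 of the 6 below them. On 6 arrays the changes of Nqo1 (0.25 ± 0.09) and Prdx1 (0.19 ± 0.08) had unadjusted p-values of 0.0257 and 0.0472 and adjusted p-values of 0.141 and 0.193 (limma). In that fit 25.2% of all tested probe sets had an unadjusted p under 0.05.

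**Figure D2:**
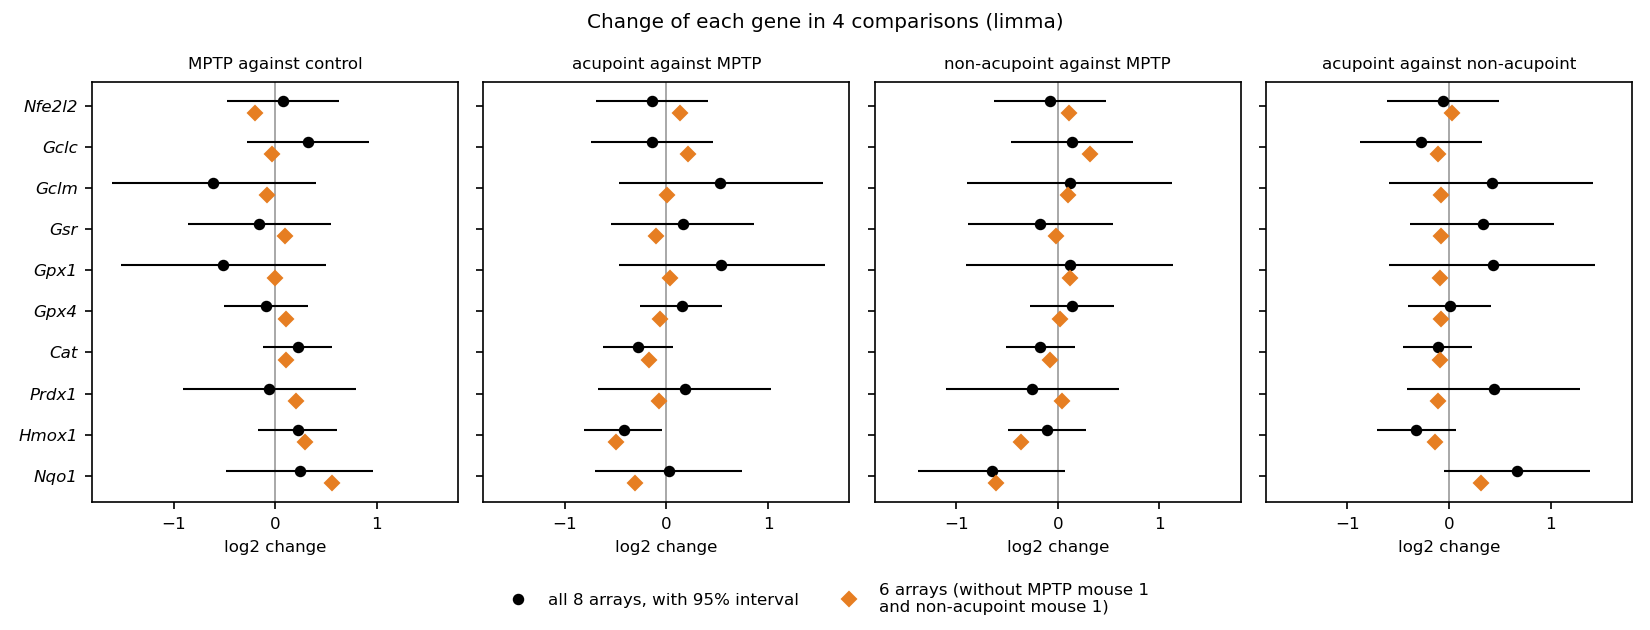
Log2 change of each gene (rows) in 4 comparisons (panels), with the value over all 8 arrays and its 95% interval in black and the value over 6 arrays as orange diamonds. The intervals of Gclm and Gpx1 are the widest, and all intervals but that of Hmox1 in acupoint against MPTP mice include 0.

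Needling at the acupoints was compared with MPTP alone. Hmox1 was lower in both acupoint mice than in both MPTP mice, by a log2 change of -0.42 ± 0.16 (SE; 95% interval -0.81 to -0.04), a 1.34-fold difference. Its unadjusted p was 0.0367 and it did not pass the test over all probe sets (adjusted p = 0.889, limma). It was the 1 gene of the 10 with an unadjusted p under 0.05, against 1.37% of all tested probe sets. Without the 2 arrays that stood apart the change was -0.50 ± 0.10, with MPTP mouse 2 as the only MPTP array. Leaving out each mouse in turn gave -0.50 to -0.35. Of the rest, Cat was lower in both acupoint mice (-0.28 ± 0.14, and -0.17 on the 6 arrays), and the other 8 genes overlapped between the groups. No overlap was found in 27.1% of all tested probe sets (14.5% higher, 12.5% lower). The 10 genes had 6 positive and 4 negative changes, with a median of 0.08 (-0.06 on the 6 arrays), where 51.3% and 48.7% of all tested probe sets were positive and negative, with a median of 0.01. At an unadjusted p under 0.05, 0.671% of them were higher and 0.697% lower, and on 6 arrays 0.019% passed the adjusted threshold. Gclm (0.53 ± 0.42) and Gpx1 (0.54 ± 0.42) had the largest positive values, which were 0.01 and 0.03 without the 2 arrays.

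Needling at the hips was compared with MPTP alone in the same way, and each of these 2 groups held 1 array that stood apart. Nqo1 was -0.65 ± 0.30 (SE; 95% interval -1.37 to 0.07) in non-acupoint mice against MPTP mice, a 1.57-fold difference in means, with groups that overlapped at 6.34 and 6.31. It did not pass (unadjusted p = 0.0693, adjusted p = 1.00, limma). Without the 2 arrays its change was -0.61 ± 0.14, between 1 mouse of each group. The choroid plexus list differed in the same direction, with means of 5.93 and 5.96 in non-acupoint mice and 8.61 and 8.67 in MPTP mice, and its part in the value of Nqo1 was not tested. None of the 10 genes had an unadjusted p under 0.05, against 1.56% of all tested probe sets, and 0.0443% of all tested probe sets passed the adjusted threshold. Cat was lower in both non-acupoint mice than in both MPTP mice (-0.17 ± 0.14, and -0.08 on the 6 arrays), and 12.4% of all tested probe sets did not overlap (5.67% higher, 6.74% lower). There were 4 positive and 6 negative changes among the 10 genes, with a median of -0.09 (0.03 on the 6 arrays), where 52.4% and 47.6% of all tested probe sets were positive and negative. At an unadjusted p under 0.05, 0.329% of them were higher and 1.23% lower, and on 6 arrays 0.146% passed the adjusted threshold.

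Acupoint and hip needling were also set against each other. The largest difference was again that of Nqo1, at 0.67 ± 0.30 (SE; 95% interval -0.05 to 1.39), with both acupoint mice above both non-acupoint mice (unadjusted p = 0.064, adjusted p = 0.893, limma). Hmox1 (-0.32 ± 0.16), Gclc (-0.28 ± 0.25) and Cat (-0.11 ± 0.14) were lower in both acupoint mice. On the 6 arrays their differences were -0.14, -0.11 and -0.09. These 4 of 10 genes stand beside 31.8% of all tested probe sets without overlap (13.8% higher, 18% lower). The 10 genes had 6 positive and 4 negative differences, with a median of 0.17 (-0.09 on the 6 arrays), where 52.3% and 47.7% of all tested probe sets were positive and negative. None of the 10 had an unadjusted p under 0.05, which 1.89% of them had (1.12% higher, 0.773% lower). On 6 arrays 0.133% passed the adjusted threshold and none of the 10 did. Without the 2 arrays the difference of Nqo1 was 0.31 ± 0.12. The test of any difference among the 4 groups called none of the 10 genes (adjusted p from 0.906 to 0.974, limma F test), with 3.54% of tested probe sets at an unadjusted p under 0.05 and none of the 10 among them. Neither needled group was tested against controls by itself, so not every pair of neighbours in the order of the group means was tested. No pair that was tested passed. That order was acupoint, control, non-acupoint and MPTP from low to high for Hmox1, and non-acupoint, control, MPTP and acupoint for Nqo1.

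The arrays that stood apart are described next, with no test, since they are not a group of the study. On both MPTP mouse 1 and non-acupoint mouse 1, 6 of the 10 genes lay below all other 6 arrays, 1 lay above them and 3 overlapped. Over all tested probe sets 29.2% lay below and 28.3% above. Ranked among all tested probe sets by this difference, Gclm (-1.03) was at percentile 3.84, Gpx1 (-1) at 4.11, Prdx1 (-0.69) at 9.32, Gsr (-0.61) at 11.7 and Nqo1 (-0.60) at 12. Gpx4 differed by -0.22. Gclc (0.56) was at percentile 86.7, with Nfe2l2 (0.29), Hmox1 (0.25) and Cat (0.20) between it and the middle.

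**Figure D3:**
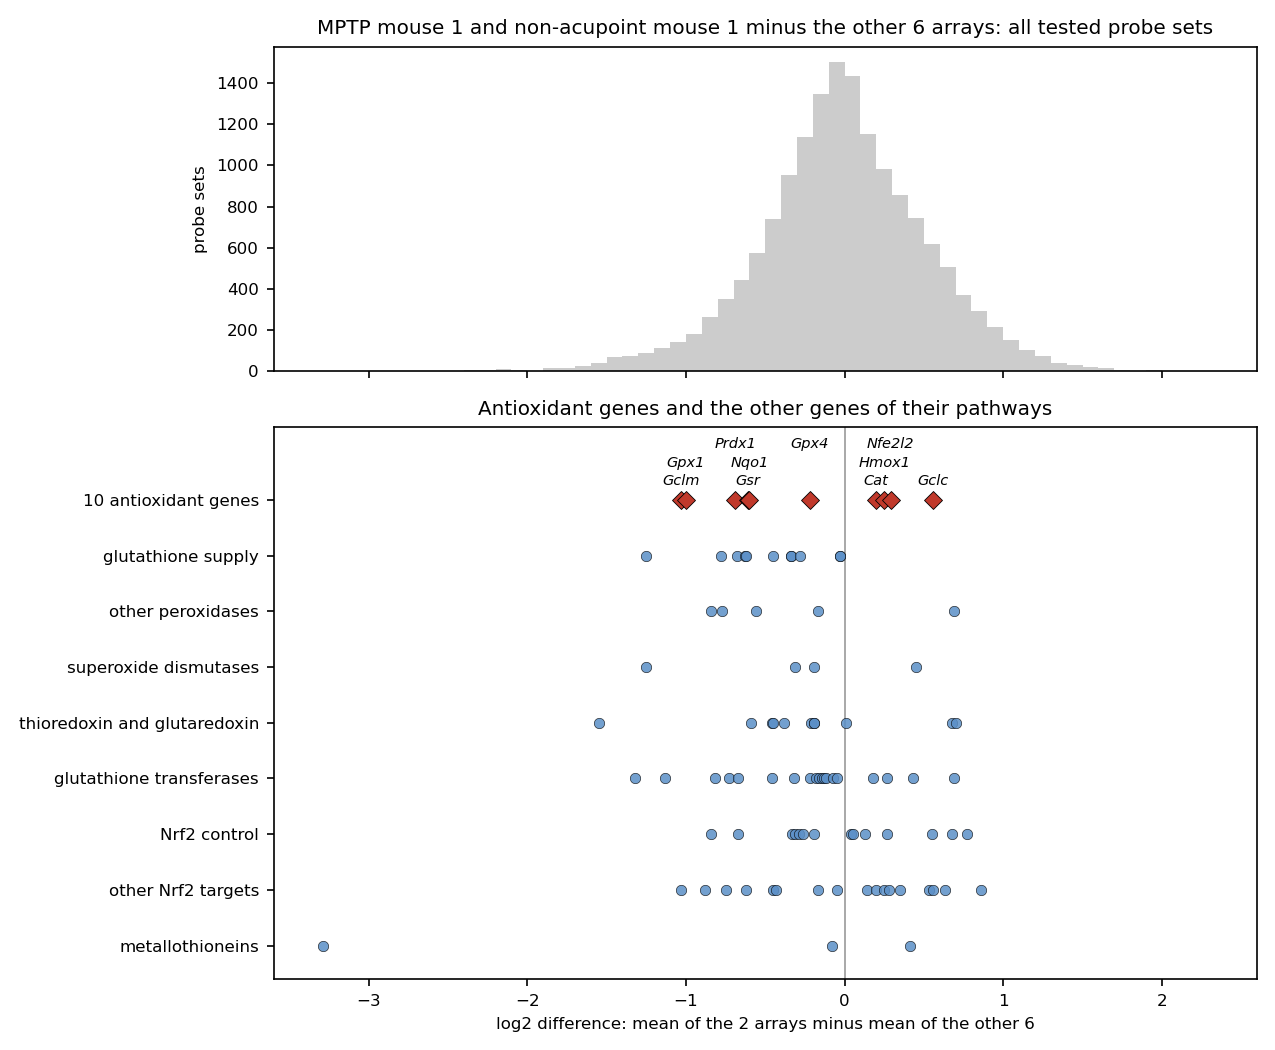
Log2 difference of MPTP mouse 1 and non-acupoint mouse 1 (mean of both) from the mean of the other 6 arrays, as a histogram over all 15791 tested probe sets (top) and for each of the 10 genes (diamonds) and 84 other genes of their pathways by list (circles; bottom). Gclm and Gpx1 lie near -1, all glutathione supply genes lie left of 0, and Mt2 lies alone at -3.29.

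The wider pathway is described on these 2 arrays in the same way, again with no test. Of 84 tested genes in 8 lists of the glutathione, peroxidase, thioredoxin and Nrf2 systems, 40 lay below all other arrays and 17 above, which is 47.6% and 20.2%, against 29.2% and 28.3% of all tested probe sets. Metallothionein Mt2, a metal-binding protein, was furthest, at 8.95 in non-acupoint mouse 1 and 8.79 in MPTP mouse 1 against 12.08 to 12.37 on the other 6 arrays. The other metallothioneins, Mt1 and Mt3, differed by -0.08 and 0.41. Thioredoxin itself, Txn1, stood at 10.14 and 9.96 on these arrays and at 11.48 to 11.68 on the others. Superoxide dismutase Sod1, the cytosolic enzyme that turns superoxide into peroxide, stood at 10.16 and 9.83 against 11.05 to 11.40. In the glutathione supply list 7 of 11 genes lay below and none above, among them glutathione synthetase, Gss (-0.62). Genes in the other direction included the exporter Abcc4 (0.86) and Bach2 (0.77), which encodes a repressor related to the Nrf2 competitor Bach1. Keap1 differed by -0.29.

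By group, none of the 84 pathway genes passed the adjusted threshold in any of the 5 comparisons over all 8 arrays (limma). Genes with an unadjusted p under 0.05 numbered 3 in MPTP mice against controls, 2 in acupoint against MPTP, 3 in non-acupoint against MPTP, 4 in acupoint against non-acupoint and 4 in injected mice against controls. As shares these are 3.57%, 2.38%, 3.57%, 4.76% and 4.76%, and the shares over all tested probe sets were 5.29%, 1.37%, 1.56%, 1.89% and 7.07%.

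In MPTP mice against controls, 30 of the 84 genes had a positive and 54 a negative change. On the 6 arrays the balance was the other way round, with 52 positive and 32 negative. The median change over all tested probe sets was -0.02 over 8 arrays and -0.01 on the 6 arrays. Complex I genes were negative in 26 of 34 and ribosomal genes in 14 of 15 over 8 arrays (medians -0.26 and -0.28), with medians of 0.09 and -0.01 on the 6 arrays. Glutathione supply genes were positive in 3 and negative in 8 (median -0.15), against 9 and 2 on the 6 arrays (median 0.14). Slc7a11, the cystine importer, had the smallest p of that list. Its log2 levels were 8.46 and 8.06 in MPTP mice and 9.16 and 8.93 in controls (-0.78 ± 0.22, SE; unadjusted p = 0.00964, adjusted p = 0.714, limma; -0.98 on the 6 arrays). Slc1a1, a neuronal glutamate and cysteine transporter, was 0.30 ± 0.14 (0.29 on the 6 arrays).

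The other lists had no passing gene in this comparison either. Glutathione transferases were negative in 14 of 19 (12 of 19 on the 6 arrays), led by Gstm6 (-0.63, and -0.33 on the 6 arrays) and Gstp1 (-0.64 and -0.14). Other peroxidases were positive in 1 and negative in 4 (median -0.16), against 3 and 2 on the 6 arrays (median 0.21). Among them Gpx8 of the endoplasmic reticulum was 0.47 (0.52 on the 6 arrays) and the secreted Gpx3 was -0.56 (-0.71). Superoxide dismutases were led by Sod1 (-0.83, and -0.10 on the 6 arrays) and the extracellular Sod3 (0.33 and 0.22). The thioredoxin list had Txnip, the thioredoxin inhibitor, at 0.26 (also 0.26 on the 6 arrays) and Glrx at 0.41 (0.12). Of the genes that control Nrf2, Nfe2l3 was 0.47 (0.24 on the 6 arrays) and the kinase gene Gsk3b 0.48 (0.14). Of its other targets, Nqo2 was 0.43 (0.24 on the 6 arrays) and the epoxide hydrolase Ephx1 0.83 ± 0.32 (0.40), both with adjusted p = 0.714 over 8 arrays (limma). Metallothioneins Mt2 (-1.50 ± 1.34) and Mt3 (0.14) had the other sign on the 6 arrays (0.28 and -0.07).

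In acupoint against MPTP mice, all 11 glutathione supply genes had a positive change over 8 arrays (median 0.30), and 7 of 11 did on the 6 arrays (median 0.06), against a median of 0.01 over all tested probe sets in both fits. Complex I genes were positive in 27 of 34 and ribosomal genes in 12 of 15 over 8 arrays (medians 0.22 and 0.27), with medians of -0.08 and -0.07 on the 6 arrays. Over all 84 pathway genes 49 were positive and 35 negative, and on the 6 arrays 32 were positive and 50 negative after rounding to 2 decimals. Gss (0.59 ± 0.27, SE; 0.33 on the 6 arrays) and Slc7a11 (0.45 ± 0.22; 0.65) had the smallest p of glutathione supply, and none passed (smallest adjusted p = 0.889, limma). Gstt2 was -0.46 ± 0.14 (-0.47 on the 6 arrays) and Gstt1 0.47 (0.08) among transferases. Among peroxidases Gpx3 was -0.87 ± 0.36 (-0.72 on the 6 arrays) and Prdx2 0.35 (-0.05). Superoxide dismutases were led by Sod3 (-0.29, and -0.18 on the 6 arrays) and the mitochondrial Sod2 (0.19 and 0.12). The thioredoxin list was led by Srxn1, the sulfiredoxin that repairs peroxiredoxins (0.40, and 0.04 on the 6 arrays), and Glrx2 (-0.41 and 0.00). Among genes that control Nrf2 the small Maf gene Mafg was 0.60 (0.10 on the 6 arrays) and Dpp3 0.34 (0.15). Its other targets had Ephx1 at -0.63 (-0.20 on the 6 arrays) and Abcc4 at -0.58 (-0.06). Metallothioneins had Mt2 at 1.53 (-0.25 on the 6 arrays) and Mt3 at -0.14 (0.07).

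In non-acupoint against MPTP mice, Gpx8 had the smallest p of the pathway genes. It stood at 5.73 and 6.56 in non-acupoint mice and at 7.39 and 7.50 in MPTP mice (-1.30 ± 0.27, SE; unadjusted p = 0.00236, adjusted p = 0.868, limma). Txnip, at 7.52 and 7.81 against 8.26 and 8.27, was -0.60 ± 0.16, and Ephx1, at 8.45 and 7.93 against 9.56 and 8.70, was -0.94 ± 0.32. All 3 were lower in both non-acupoint mice than in both MPTP mice, as the choroid plexus list was, whose part was not tested. On the 6 arrays their changes were -0.94, -0.45 and -0.76. Next in their lists were Gpx3 (0.42, and 0.06 on the 6 arrays), the mitochondrial thioredoxin reductase Txnrd2 (0.11 and 0.01) and the aldehyde oxidase Aox1 (-0.40 and -0.16). Glutathione supply was led by Chac1, which degrades glutathione (0.30, and 0.17 on the 6 arrays), and Ggt5 (-0.12 and -0.25). Transferases were led by Gstt2 (-0.25, and -0.36 on the 6 arrays) and Gstm2 (-0.26 and -0.31). Btrc (0.12, and 0.05 on the 6 arrays) and the small Maf gene Mafk (-0.16 and -0.20) led the genes that control Nrf2. Superoxide dismutases and metallothioneins were led by Sod1 (0.14, and -0.05 on the 6 arrays), Sod2 (0.04 and 0.10), Mt1 (-0.03 and -0.01) and Mt3 (0.03 and -0.01). Over all 84 genes 38 were positive and 46 negative, and on the 6 arrays 42 and 40 after rounding to 2 decimals. The median change over all tested probe sets was 0.01, and 0.04 on the 6 arrays.

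In injected mice against controls, Slc1a1 was higher in all 6 injected mice (9.75 to 10.11) than in both controls (9.54 and 9.51), with a log2 change of 0.39 ± 0.11 (SE). Nqo2, a quinone reductase related to Nqo1, was also higher in all 6 (7.53 to 7.91 against 7.30 and 7.28; 0.45 ± 0.13), and Slc7a11 was lower in all 6 (8.06 to 8.88 against 9.16 and 8.93; -0.58 ± 0.18). Of all tested probe sets 19.9% had all 6 injected mice on 1 side of both controls (10.3% higher, 9.66% lower). None of the 3 genes passed over 8 arrays (adjusted p = 0.473, 0.473 and 0.516, limma). Without the 2 arrays that stood apart all 3 passed, with changes of 0.43, 0.38 and -0.59 (adjusted p = 0.0231, 0.0288 and 0.0464, limma), as did Gpx3 (-0.93, adjusted p = 0.032; -0.71 over 8 arrays) and Ggt7 (0.46, adjusted p = 0.0212; -0.02 over 8 arrays), while none of the 10 antioxidant genes did. In that fit 5.41% of all tested probe sets passed, and 5 of 84 pathway genes is near that share. Of the arrays left out, non-acupoint mouse 1 had Gpx3 at 8.59, above both controls (8.26 and 8.17), and MPTP mouse 1 had it at 7.81. The dopamine neuron list was lower in injected mice in all 11 tested genes, and the thalamic neuron list higher in 13 of 14. The meninges list was lower in all 11 of its tested genes, with means of 7.43 and 7.32 in controls and 6.46 to 6.99 in injected mice. The choroid plexus list was higher in 12 of 13, though its means in non-acupoint mice lay below those of both controls. Their part in the levels of these genes was not tested. Transferases were led by the microsomal Mgst3 (0.26, and 0.30 on the 6 arrays) and by Gsto2 (-0.21 and -0.18). Genes that control Nrf2 were led by Nfe2l3 (0.40, and 0.25 on the 6 arrays) and the ubiquitin ligase subunit Cul3 (0.27 and 0.18). The ferritin light chain Ftl1 was -0.31 (-0.18 on the 6 arrays), Sod1 -0.60 (-0.18) and Sod3 0.22 (0.08). Glrx was 0.39 (0.18 on the 6 arrays) and Glrx5 -0.13 in both fits. Prdx4 (-0.18), Mt2 (-0.99) and Mt3 (0.10) had the other sign on the 6 arrays (0.13, 0.15 and -0.05). Over all 84 genes 34 were positive and 50 negative, and on the 6 arrays 48 and 35 after rounding to 2 decimals. The median change over all tested probe sets was -0.01, and 0 on the 6 arrays.

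The genes closest in pattern were sought for the 3 most variable of the 10, as the smallest root mean square difference between profiles over the 8 arrays, each centred on its own mean, among 13523 other genes. For Gclm these were Tm2d3 (0.038 log2 units), Ip6k1 (0.042) and Atxn7l3b (0.045), against a median of 0.46 over all genes. For Gpx1 they were Ip6k1 (0.046), H2ax (0.051) and Gclm itself (0.052). These profiles are flat but for MPTP mouse 1 and non-acupoint mouse 1. Nqo1 had no neighbour as near: Perp, which encodes a desmosomal membrane protein, differed by 0.072, Tmem237 by 0.115 and Tspo, the outer mitochondrial translocator protein, by 0.126, with a median of 0.40. Among the 10 genes, Gclm with Gpx1 (0.05) and Gsr with Prdx1 (0.11) were the closest pairs.

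**Figure D4:**
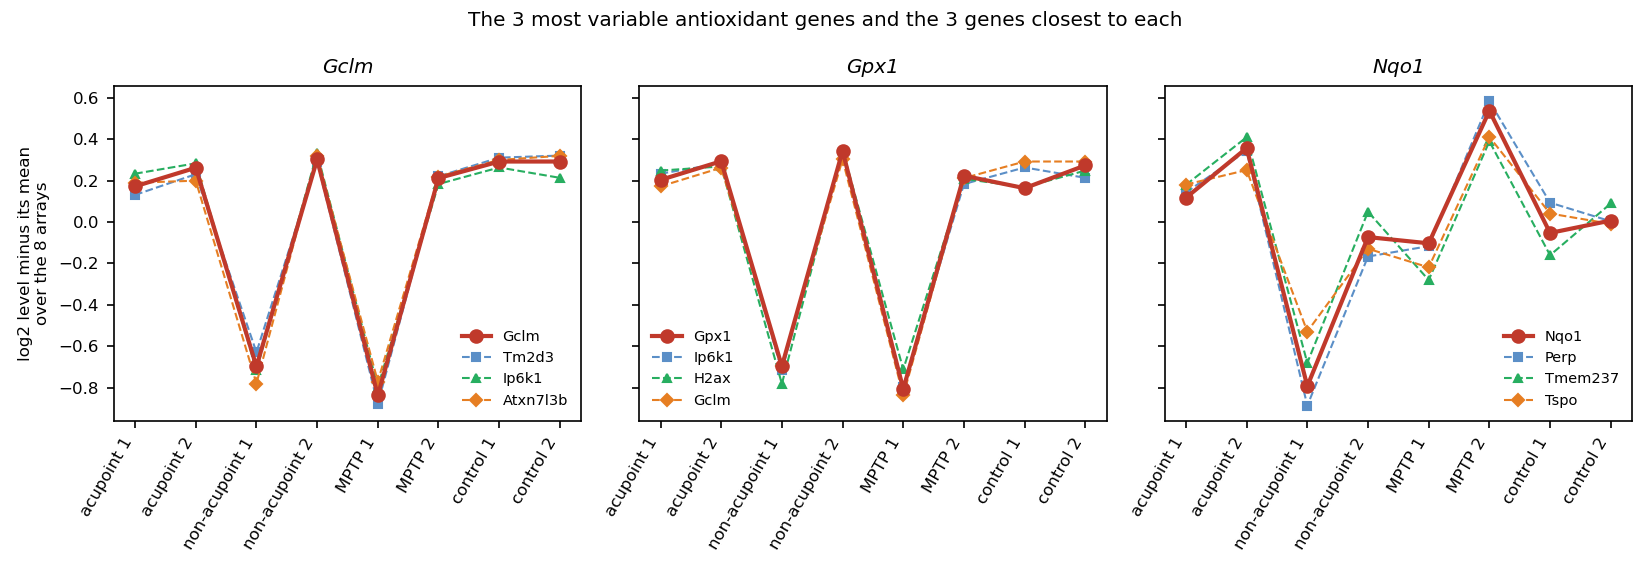
Log2 level minus its mean over the 8 arrays for Gclm, Gpx1 and Nqo1 (thick red lines) and the 3 genes closest to each (dashed lines), arrays along the horizontal axis with groups in order, lines drawn only to guide the eye. Gclm and Gpx1 dip on non-acupoint mouse 1 and MPTP mouse 1 and are flat elsewhere, whereas Nqo1 and its neighbours are lowest in non-acupoint mouse 1. Nqo1, Perp and Tspo peak in MPTP mouse 2, and Tmem237 is slightly higher in acupoint mouse 2 than there.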

How the data were processed

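Each of 8 thalamic RNA samples was hybridised to 1 Affymetrix whole-transcript array. The submitters' processing notes name Affymetrix Expression Console and RMA, a method of background correction, normalization between arrays and summary per probe set. The values the authors deposited are on the log2 scale. Their tool versions are not stated. RMA pulls arrays towards 1 distribution and compresses dim probe sets. Array medians lay between 6.18 and 6.29. Precision is limited by the number of arrays. No arrays held identical values.

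Of 35557 probe sets 21789 had 1 gene symbol in the supplied annotation, 1621 several and 12147 none. Unnamed probe sets and the dimmest 40% by mean (under 5.63) were left out, leaving 15791. Group means were fitted over all 8 arrays in limma 3.58.1 under R 4.3.3 (lmFit, eBayes; 4 residual and 2.53 prior degrees of freedom). Tests were two-sided and adjusted by Benjamini-Hochberg over all tested probe sets at 0.05. Intervals cover 95%. A permutation of 2 against 2 arrays cannot give a p under 0.333. P-values set a difference between group means against the spread between mice within groups, pooled over groups, with eBayes drawing on all probe sets. In the fits on 6 arrays the MPTP and non-acupoint groups add nothing to that spread. The fit was also run on simulated data whose noise was independent between arrays, unlike these data, in which 2 arrays stood apart together.

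The 10 genes and all lists were chosen with earlier results of these data known. Pathway genes were named as the 2 of smallest p per list and comparison, leaving out acupoint against non-acupoint. Values for 6 arrays leave out MPTP mouse 1 and non-acupoint mouse 1. The erythrocyte list had 1 tested gene of 10 and was not used. The other cell type lists covered oligodendrocytes (array means 10.35 to 10.70), microglia (7.54 to 7.87), endothelium (7.81 to 8.36), meninges (6.46 to 7.43) and ependyma (5.85 to 6.87). No label says that a mouse number marks a shared litter or day.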

Additional observations from a re-analysis of the deposited data

How the results depend on the processing

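No call of the 10 genes appeared in any of the 6 tests under any alternative: cyclic loess, a repeat of quantile normalization, the dimmest 60% left out or no probe set left out for dimness, unnamed probe sets kept, an intensity trend, a robust fit, fits on only the groups compared, the mean of all probe sets of a gene, and leaving out each mouse (smallest adjusted p = 0.097, limma). With the dimmest 60% left out, Hmox1 and Nqo1 were not tested. Fits on only the groups compared did not cover injected mice against controls or the test of any group difference. With the mouse number as a replicate block the count of called genes was 0 in each test. The changes themselves cannot move in that fit, since each group holds 1 mouse of each number. The same-numbered deviations of MPTP and non-acupoint mice correlated at 0.822 over probe sets, those of MPTP and acupoint mice at -0.282, so the numbers were not taken to pair the mice. Cyclic loess turned Gpx4 in acupoint against non-acupoint to -0.02.

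Without MPTP mouse 1 and non-acupoint mouse 1, 22 of 50 changes had the other sign, none of them called, and the median in acupoint against non-acupoint mice was -0.09, against 0.17. The cause was not tested. In MPTP against control the turned values were Gclc -0.03, Gpx4 0.11, Gsr 0.10, Nfe2l2 -0.20 and Prdx1 0.20. In acupoint against MPTP they were Gclc 0.21, Gpx4 -0.06, Gsr -0.10, Nfe2l2 0.13, Nqo1 -0.31 and Prdx1 -0.07. In non-acupoint against MPTP they were Nfe2l2 0.11 and Prdx1 0.04. In acupoint against non-acupoint they were Gclm -0.08, Gpx1 -0.09, Gpx4 -0.08, Gsr -0.08, Nfe2l2 0.03 and Prdx1 -0.11. In injected mice against control they were Gpx1 0.05, Gsr 0.06 and Prdx1 0.19. Of the other pathway genes 5 passed in injected mice against control and 1 (Gpx3, adjusted p = 0.0494, limma) in the test of any group difference, against 0 over 8 arrays.

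Leaving out each mouse in turn turned a sign or moved a median as follows, lowest to highest value, with none of these called. In MPTP against control the values were -0.03 to 0.68 for Gclc, -0.30 to 0.11 for Gpx4, -0.42 to 0.10 for Gsr, -0.20 to 0.35 for Nfe2l2, -0.09 to 0.56 for Nqo1, -0.31 to 0.20 for Prdx1 and -0.19 to 0.11 for the median. In acupoint against MPTP the values were -0.50 to 0.21 for Gclc, -0.06 to 0.35 for Gpx4, -0.10 to 0.42 for Gsr, -0.42 to 0.13 for Nfe2l2, -0.31 to 0.34 for Nqo1, -0.07 to 0.44 for Prdx1 and -0.06 to 0.35 for the median. In non-acupoint against MPTP the values were -0.21 to 0.49 for Gclc, -0.41 to 0.64 for Gclm, -0.40 to 0.64 for Gpx1, -0.07 to 0.35 for Gpx4, -0.58 to 0.24 for Gsr, -0.28 to 0.07 for Hmox1, -0.36 to 0.19 for Nfe2l2, -0.79 to 0.29 for Prdx1 and -0.29 to 0.09 for the median. In acupoint against non-acupoint the values were -0.08 to 0.92 for Gclm, -0.09 to 0.95 for Gpx1, -0.08 to 0.09 for Gpx4, -0.08 to 0.74 for Gsr, -0.23 to 0.11 for Nfe2l2, -0.11 to 0.98 for Prdx1 and -0.09 to 0.41 for the median. In injected groups against control the values were -0.01 to 0.15 for Cat, -0.02 to 0.11 for Hmox1, -0.09 to 0.15 for Nqo1 and -0.26 to 0.10 for Prdx1.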
